A study of Canis lupus familiaris with 18 samples.

Results

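Genes of motile cilia and of oviduct epithelium were followed through 2 fat depots, subcutaneous and gonadal, of 9 intact female beagles. The genes were chosen by symbol. They comprise every dynein axonemal heavy chain (DNAH), dynein axonemal intermediate chain (DNAI), dynein axonemal assembly factor (DNAAF), cilia and flagella associated protein (CFAP), radial spoke head protein (RSPH) and tektin (TEKT). FOXJ1, SPAG6, SPAG16, SPAG17, OVGP1, CCDC39, CCDC40, HYDIN, PIFO and TPPP3 were added by name. A probe set, the array's unit of several short probes that read 1 transcript, was kept where its log2 expression reached 4, the floor used throughout, in 1 or more of the 18 arrays. Of 169 probe sets matched by symbol 113 were kept, out of 43035 on the array, and they stand for 61 of the 15115 genes named by a single symbol. The other 56 lay below the floor in every array. HYDIN and PIFO were matched by no probe set.

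The dogs were 4 years old and were randomised. Control dogs (4 dogs) received enough of 1 commercial diet to hold their starting body weight, and ad libitum dogs (5 dogs) ate the same diet freely. At 24 weeks, after an overnight fast, both depots of every dog were sampled, which gave 4 subcutaneous control, 5 subcutaneous ad libitum, 4 gonadal control and 5 gonadal ad libitum arrays (Affymetrix canine GeneChips, 1 colour). The labels describe the subcutaneous arrays, but not the gonadal ones, as belonging to an earlier submission. A batch effect of the arrays and a depot effect therefore cannot be told apart. The number of arrays limits the precision.

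A motile cilium is a beating hair on an epithelial cell, built on an axoneme of doublet microtubules around a central pair. Outer and inner dynein arms bend it, radial spokes relay signals from the central pair to the arms, and tektins and other proteins inside the doublets stiffen it. The oviduct is lined by ciliated cells with motile cilia and by secretory cells that release oviductal glycoprotein 1 (OVGP1), and fat cells carry no motile cilia. In bulk tissue such as this, fewer cells of a type and less RNA per cell cannot be told apart.

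These transcripts stood high in 1 subcutaneous array and in 1 gonadal array, of different dogs and different feeding groups. In the gonadal array of dog 6 (ad libitum) the median of the 61 genes lay 4.01 log2 units above the median of the other 8 gonadal arrays. In the subcutaneous array of dog 4 (control) it lay 1.80 log2 units above that of the other 8 subcutaneous arrays. In the other 16 arrays this median lay between -0.05 and 0.03. Over the 20 genes that reached the floor in at least 1 of those 16 arrays the median lay 2.28 log2 units above the depot in gonadal dog 6 and 0.88 in subcutaneous dog 4, and between -0.08 and 0.17 in the others. The other depot of the same dogs showed no such rise, with -0.02 in the subcutaneous array of dog 6 and -0.05 in the gonadal array of dog 4. Of the 61 genes 57 lay at least 1 log2 unit above their depot in gonadal dog 6 and 45 in subcutaneous dog 4, and all of these 45 were among the 57. In each of the other 16 arrays 0 or 1 gene did. Over 9749 other genes the share that lay as far above was 13.1% in gonadal dog 6, 7.09% in subcutaneous dog 4 and 1.76% to 8.34% in the others, and their medians were -0.03 and -0.02 in this pair of arrays.

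**Figure D1:**
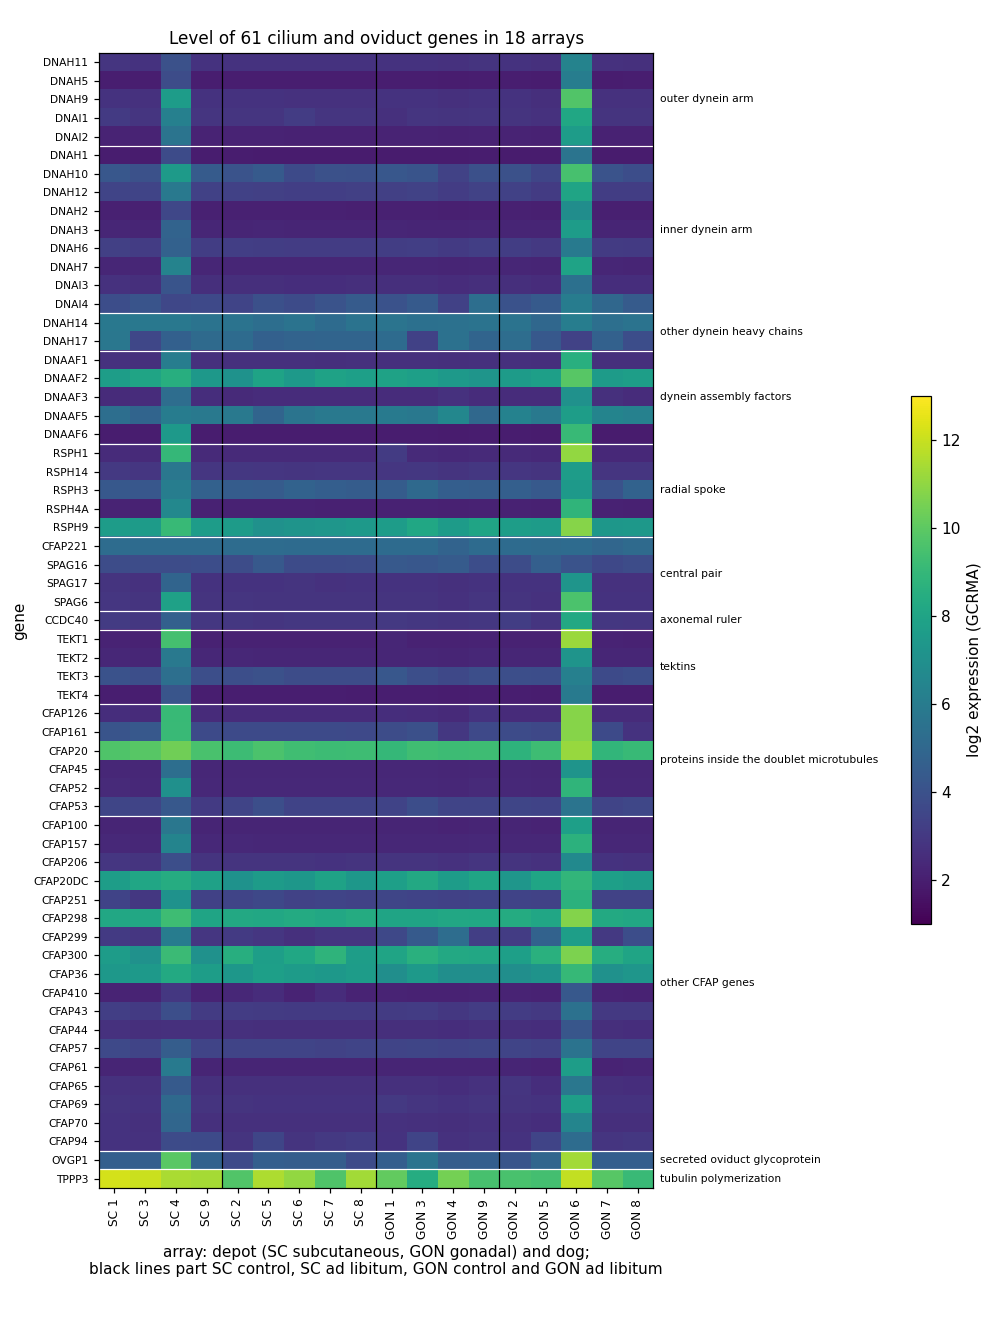
Log2 expression of the 61 genes (rows, 1 probe set per gene, grouped by role) in the 18 arrays (columns, by depot, feeding group and dog), with colour from low (dark) to high (yellow). The subcutaneous array of dog 4 and the gonadal array of dog 6 form bright columns, and 12 genes such as TPPP3, CFAP20 and CFAP298 reach the floor in every array.

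The choice of genes bears on these counts. Each gene was read by its kept probe set with the highest mean. So read, 41 of the 61 genes reached the floor only in gonadal dog 6 and subcutaneous dog 4, in 1 or both. They entered through the high values themselves: 32 in both and 9 in gonadal dog 6 alone. Other probe sets of DNAH11 and CFAP44, among the 9, also reached the floor in subcutaneous dog 4. Another probe set of CFAP251, among the 32, reached it in subcutaneous dog 2 too. The counts above are therefore a description of these arrays. The other 20 genes reached the floor in at least 1 other array as well, and of those 16 lay at least 1 log2 unit above their depot in gonadal dog 6 and 9 in subcutaneous dog 4. Over all 169 matched probe sets, kept or not, gonadal dog 6 was the highest of the 18 arrays for 119, and subcutaneous dog 4 the highest of the 9 subcutaneous arrays for 100. Of these 106 and 96 were among the 113 kept. Among the 56 below the floor in every array the counts were 13 and 4. Just inside the floor lay a CFAP70 probe set with a highest value of 4.03 and a CFAP65 one with 4.10. Just outside lay a DNAH9 probe set with 3.91 and a CFAP298 one with 3.90.

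**Figure D2:**
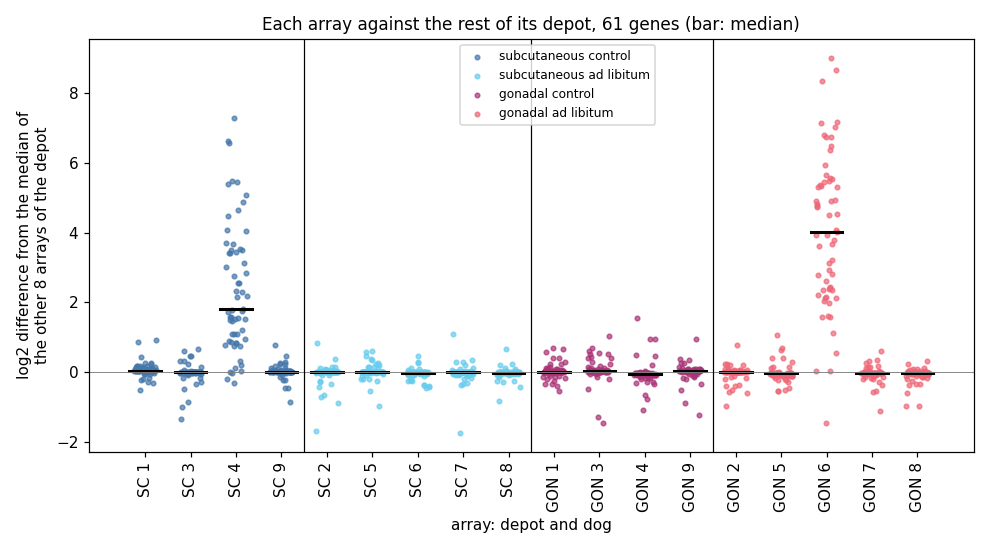
Log2 difference of each of the 61 genes (points) from the median of the other 8 arrays of the depot, for each array (horizontal axis, depot and dog), coloured by group with a bar at the median. The medians are 1.80 in subcutaneous dog 4 and 4.01 in gonadal dog 6, and from -0.05 to 0.03 in the other 16 arrays.

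The outer dynein arm, whose heavy chains are the motors that set beat frequency, was measured by 5 genes. All 5 lay at least 1 log2 unit above their depot in both arrays, with medians of 3.40 in subcutaneous dog 4 and 5.33 in gonadal dog 6. The heavy chain DNAH9 had a log2 expression of 7.63 in subcutaneous dog 4 and 9.76 in gonadal dog 6, against 2.64 to 2.77 (median 2.74) in the other 16. With the other arrays set to the floor, which gives a lower bound, DNAH9 was at least 12.3-fold higher in subcutaneous dog 4 and at least 54.3-fold higher in gonadal dog 6. The intermediate chains, which tie the motor to its cargo doublet, behaved alike: DNAI1 stood at 6.25 and 8.14 (other arrays 2.68 to 3.12) and DNAI2 at 5.62 and 7.65 (2.14 to 2.21). The heavy chain DNAH5 reached the floor in gonadal dog 6 alone, at 6.07. For DNAH11 the probe set read here did so too, at 6.37. The other kept probe sets of DNAH11 reached it in both arrays. They stood at 6.45 and 5.92 in subcutaneous dog 4 and at 7.87 and 8.44 in gonadal dog 6.

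Inner dynein arms, which shape the bend, were measured by 9 genes, with medians of 1.79 in subcutaneous dog 4 and 4.74 in gonadal dog 6. DNAH10 stood at 7.52 and 9.50 and at 3.39 to 4.46 (median 3.99) in the other 16 arrays. DNAH12 stood at 5.85 and 7.99 against 3.10 to 3.46, and DNAI3 at 4.13 and 5.41 against 2.53 to 2.69. Thus each of these was higher in this pair than in any other array. DNAI4 was the exception: at 6.02 it was highest in gonadal dog 6, but its 3.56 in subcutaneous dog 4 lay inside the 3.33 to 5.35 of the others. The remaining heavy chains did not follow the set. DNAH14 stood at 5.79 and 6.07 with 5.02 to 5.80 elsewhere, and DNAH17, an outer arm chain of sperm tails, at 4.68 and 3.35 with 3.33 to 5.75 elsewhere.

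Dynein assembly factors are cytoplasmic proteins that fold and pre-assemble the arms. Of 5 measured, DNAAF1 stood at 6.08 in subcutaneous dog 4 and 8.58 in gonadal dog 6, against 2.60 to 2.72 (median 2.65) in the other 16 arrays. DNAAF6 stood at 7.44 and 9.10, against 1.91 to 1.96. DNAAF2 and DNAAF5 differed from these in reaching the floor in every array. DNAAF2 stood at 8.53 and 9.87 with 7.12 to 8.02 (median 7.70) elsewhere, and DNAAF5 at 6.05 and 7.68 with 4.85 to 6.56 elsewhere, so that for DNAAF5 only gonadal dog 6 left the range.

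By the probe set with the highest mean, all 5 radial spoke genes measured were at least 1 log2 unit above their depot in both arrays. The other RSPH3 probe set lay only 0.46 log2 units above the depot in subcutaneous dog 4. RSPH1, a spoke head protein, stood at 9.00 in subcutaneous dog 4 and 11.07 in gonadal dog 6, and at 2.37 to 3.09 (median 2.43) in the other 16. RSPH4A, another head protein, stood at 6.61 and 8.87 against 2.09 to 2.18, and RSPH14 at 5.74 and 7.62 against 2.80 to 2.99. RSPH3, a stalk protein, and RSPH9, a head protein, carried signal in every array and stood higher still in this pair. RSPH3 stood at 6.09 and 7.49 with 4.04 to 5.11 elsewhere, and RSPH9 at 9.10 and 10.84 with 7.05 to 8.13 (median 7.60). The lowest of 3 RSPH9 probe sets lay at 5.33 and 7.56 in this pair and at 3.03 to 3.85 elsewhere, so the signal of RSPH9 in the other arrays rests on the probe set read.

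The central pair genes were divided. SPAG6 stood at 7.87 and 9.58, against 2.72 to 2.90 (median 2.80) in the other 16 arrays, and SPAG17 at 4.88 and 7.26 against 2.68 to 2.82. SPAG16 did not follow them, at 3.79 in subcutaneous dog 4 and 4.08 in gonadal dog 6 with 3.62 to 4.65 elsewhere. For CFAP221 the answer depended on the probe set: that with the highest mean stood at 5.19 and 5.20 with 4.84 to 5.24 elsewhere, and another at 5.61 and 7.75 with 2.57 to 2.70 elsewhere. CCDC40, which with CCDC39 sets the spacing of arms and spokes along the axoneme, stood at 4.68 and 8.24 against 2.87 to 3.17. The single CCDC39 probe set lay between 2.20 and 2.28 in all 18 arrays.

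Tektins, filament proteins of the doublet wall, were measured by 4 genes, and all 4 lay at least 1 log2 unit above their depot in both arrays. TEKT1 was 9.45 in subcutaneous dog 4, and 2.19, 2.16 and 2.17 in the other subcutaneous control arrays (dogs 1, 3 and 9). It was 11.18 in gonadal dog 6, and 2.16, 2.13, 2.18 and 2.14 in the other gonadal ad libitum arrays (dogs 2, 5, 7 and 8). All 16 other arrays lay between 2.13 and 2.29, below the floor, where no difference between groups could be read. Against the floor TEKT1 was at least 43.8-fold higher in subcutaneous dog 4 and at least 145-fold higher in gonadal dog 6. TEKT2 stood at 5.84 and 7.20 (elsewhere 2.26 to 2.34) and TEKT3 at 5.39 and 6.21 (elsewhere 3.60 to 4.27). Among proteins that coat the inside of the doublets, CFAP126 stood at 9.11 and 10.83 against 2.43 to 2.75 and CFAP161 at 9.14 and 10.81 against 2.74 to 4.30. CFAP20 was present everywhere, at 10.38 and 11.14 against 8.75 to 9.88 (median 9.29).

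The other 18 CFAP genes had medians of 1.29 in subcutaneous dog 4 and 2.86 in gonadal dog 6, where all 18 lay at least 1 log2 unit above the depot, against 12 in subcutaneous dog 4. CFAP298 and CFAP300, both needed to assemble dynein arms, reached the floor in every array. CFAP298 stood at 9.30 and 10.76 with 8.00 to 8.40 elsewhere, and CFAP300 at 9.19 and 10.61 with 7.07 to 8.78. CFAP20DC stood at 8.41 and 8.89, only just outside the 7.14 to 8.22 of the other 16 arrays.

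OVGP1, the secreted glycoprotein of the oviduct, was measured by 1 kept probe set. Its log2 expression was 9.94 in subcutaneous dog 4 and 4.60, 4.57 and 4.78 in the other subcutaneous control arrays (dogs 1, 3 and 9). In subcutaneous ad libitum fat it was 3.68, 4.57, 4.55, 4.55 and 3.74 (dogs 2, 5, 6, 7 and 8). Apart from dog 4 the control values lay above the ad libitum ones, except that the groups met at 4.57. All of these lay between 3.68 and 4.78, near or below the floor of 4, so no difference between the feeding groups was read. In gonadal fat the control dogs 1, 3, 4 and 9 had 4.57, 5.62, 4.52 and 4.59, and the ad libitum dogs 2, 5, 6, 7 and 8 had 4.18, 4.97, 11.31, 4.57 and 4.61. Dog 3 of the gonadal control group was the next highest array, 1.04 log2 units above the median of its depot.

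**Figure D3:**
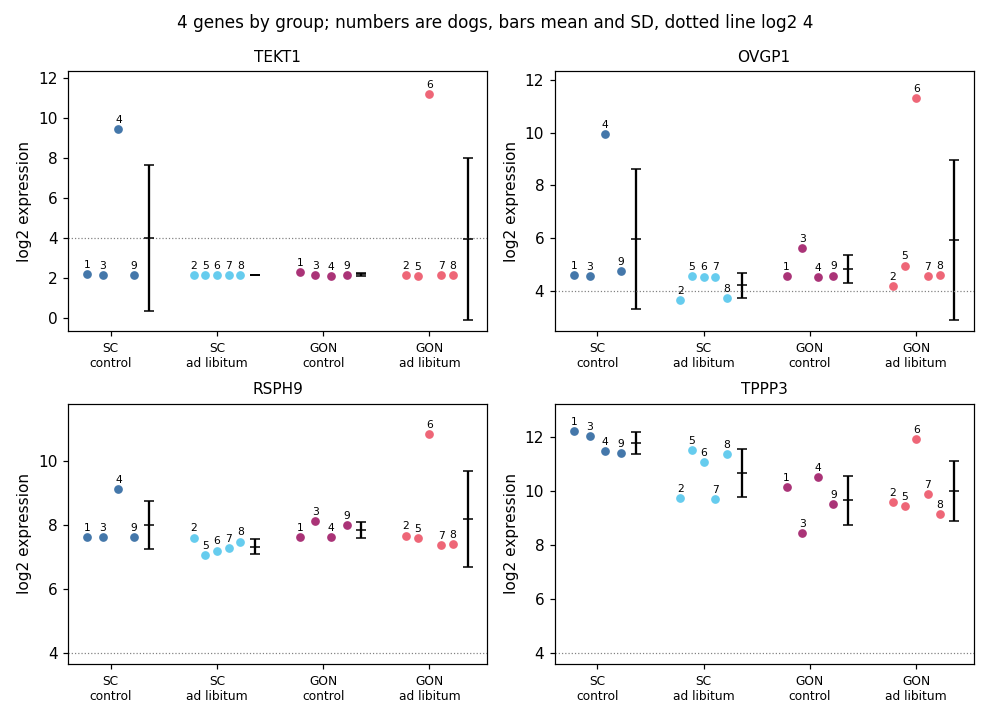
Log2 expression of TEKT1, OVGP1, RSPH9 and TPPP3 in each array (points, labelled by dog) by group, with the group mean and SD (bars) and the floor (dotted line). For TEKT1, OVGP1 and RSPH9 subcutaneous dog 4 and gonadal dog 6 stand above every other array, whereas TPPP3 is high in all and subcutaneous dog 4 lies among its group.

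TPPP3, which promotes the polymerization of tubulin, did not share the pattern. Its log2 expression was 12.21, 12.03, 11.47 and 11.39 in the subcutaneous control arrays (dogs 1, 3, 4 and 9) and 9.73, 11.51, 11.07, 9.69 and 11.34 in the ad libitum ones (dogs 2, 5, 6, 7 and 8). Subcutaneous dog 4 lay within its group. In gonadal fat it was 10.13, 8.44, 10.49 and 9.52 in control dogs 1, 3, 4 and 9, and 9.57, 9.43, 11.90, 9.87 and 9.13 in ad libitum dogs 2, 5, 6, 7 and 8. Gonadal dog 6 was the highest gonadal array, 2.35 log2 units above the others' median. In every control dog the subcutaneous value exceeded the gonadal one.

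The levels of the pair of arrays were compared gene by gene. For 40 genes at or above the floor and at least 1 log2 unit above the depot in both, gonadal dog 6 exceeded subcutaneous dog 4 in log2 expression for all 40, by a median of 1.75 (quartiles 1.49 and 2.04). The gap ran from 0.82 for TEKT3 to 3.56 for CCDC40. Among 507 other genes that met the same criteria the median gap was 1.44 (quartiles 0.91 and 1.81), and it was positive for 476. Gonadal dog 6 was the highest of the 18 arrays for 57 of the 61 genes, and for 53 genes it came first and subcutaneous dog 4 second. The genes that reached a difference of 1 log2 unit in gonadal dog 6 alone were 12: CFAP20, CFAP20DC, CFAP36, CFAP410, CFAP43, CFAP44, CFAP53, CFAP94, DNAAF2, DNAAF5, DNAI4 and TPPP3. CFAP221, DNAH14, DNAH17 and SPAG16 reached it in neither. Each gene was read here by its kept probe set with the highest mean. By other kept probe sets CFAP221, CFAP44 and DNAI4 did pass 1 log2 unit in subcutaneous dog 4, and CFAP221 in gonadal dog 6 too.

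**Figure D4:**
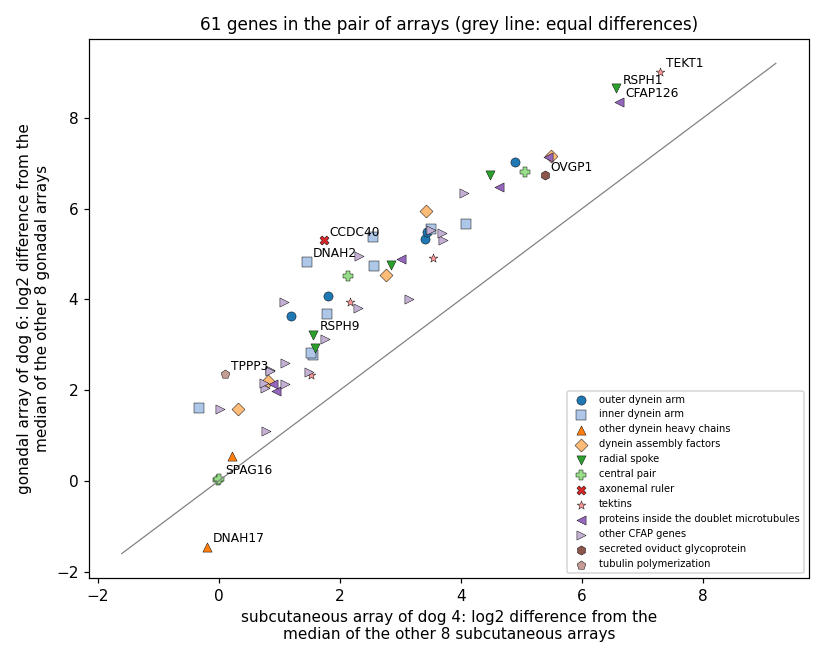
Log2 difference from the other 8 arrays of the depot for the 61 genes in subcutaneous dog 4 (horizontal) and gonadal dog 6 (vertical), with marker and colour by role and a grey line where both are equal. DNAH17 lies at -0.20 and -1.45, TPPP3 at 0.11 and 2.35, and TEKT1, at 7.29 and 9.02, is farthest out.

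Of the 34 genes with several kept probe sets, those of CFAP221 disagreed in gonadal dog 6 (some at least 1 log2 unit above the depot and some not), and those of 12 genes disagreed in subcutaneous dog 4. A further 38 probe sets of 21 of the 61 genes lay below the floor in every array. Of the 10 genes without a kept probe set, CCDC39, CFAP46, CFAP58, CFAP74, CFAP97D1, DNAAF4, DNAH8, FOXJ1, RSPH6A and TEKT5, none reached a difference of 1 log2 unit in either array. FOXJ1, the transcription factor that switches on the motile cilium programme, is represented by 1 probe set, and it lay at 1.71 in subcutaneous dog 4, 1.69 in gonadal dog 6 and 1.69 to 1.73 elsewhere. No signal of FOXJ1 was thus read in the arrays that carry the axonemal transcripts. The highest value among these 10 genes was 3.88, for DNAAF4, in gonadal dog 6.

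In the other 16 arrays members departed singly. Differences of at least 1 log2 unit upward were read for CFAP299 in gonadal dogs 4 and 5 (log2 expression 5.27 and 4.77), CFAP300 in subcutaneous dog 7 (8.78) and OVGP1 in gonadal dog 3 (5.62). Downward there were 8, of which 3 belonged to TPPP3 (subcutaneous dogs 2 and 7 and gonadal dog 3) and 2 to DNAH17 (dog 3 in both depots). These 12 were chosen by that size after the values were seen.

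Lists of genes outside the set, drawn up for ciliated and other cells, were read in the same way. Of 50 other motile cilium genes 42 lay at least 1 log2 unit above the depot in subcutaneous dog 4 (median 2.31) and 49 in gonadal dog 6 (median 4.23), and the medians in the other arrays lay between -0.04 and 0.03. AK8, an axonemal adenylate kinase, stood at 8.41 and 10.14 with 2.36 to 2.45 elsewhere, and MORN5 at 8.50 and 10.02. CETN2, a centriole protein of most cells, stood at 11.59 and 12.88 with 10.03 to 10.89 elsewhere, whereas TUBA4A, an alpha tubulin, stood at 9.04 and 8.38, inside its range of 6.48 to 11.71 elsewhere. Of 5 ciliogenesis regulators 1 and 4 did so, against 0 to 2 in the other arrays. CCNO, needed to multiply centrioles, stood at 3.33 and 6.53 with at most 2.06 elsewhere, MYB at 2.48 and 5.12, and RFX2 at 5.37 and 6.89 with 4.10 to 6.61 elsewhere. E2F4, at 5.84 and 5.81, lay inside the 5.30 to 6.44 of the others. Genes of intraflagellar transport and of the primary cilium, which most cells bear, stood less far above their depot, with medians of 0.48 and 1.01 over 30 genes and 6 and 15 of them past 1 log2 unit. The medians in the other 16 arrays ran from -0.50 to 0.56, so subcutaneous dog 4 lay inside their range. IFT52, a part of the transport train, stood at 10.12 and 10.83 with 9.37 to 10.08 elsewhere.

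Epithelial genes also stood high in both arrays. Among 20 simple epithelium genes 11 lay at least 1 log2 unit above the depot in subcutaneous dog 4 (median 1.43) and 17 in gonadal dog 6 (median 2.89). In the other 16 arrays 0 to 6 did so, with medians from -0.03 to 0.05. EPCAM, an epithelial adhesion molecule, was 12.91 in subcutaneous dog 4 against 2.99 to 3.82 in the other subcutaneous arrays. In gonadal fat it was 14.01 in dog 6 and 9.83 to 11.74 in the others, so EPCAM was above the floor in all gonadal arrays, including those in which TEKT1 lay below it. Of 11 oviduct and uterus genes 6 lay at least 1 log2 unit above the depot in each array of the pair, against 0 to 3 in the other 16. WFDC2, a secreted protein of the reproductive tract, stood at 8.49 and 10.45 with at most 4.52 elsewhere, and MUC1 at 7.90 and 9.88 with at most 3.86. KLF5, an epithelial transcription factor, stood at 9.67 and 11.60 with at most 8.60 elsewhere. LCN2, an iron-scavenging defence protein, did not follow: it stood at 6.56 in subcutaneous dog 4, below the 7.05 to 11.91 of its depot, and at 5.36 in gonadal dog 6, within 3.87 to 9.31. The progesterone receptor PGR stood at 7.90 and 9.71, and at 8.60 in gonadal dog 3, the array next highest for OVGP1. PAX8, a marker of oviduct secretory cells, lay below the floor in every array.

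Markers of other tissues differed between these arrays. Of 7 mesothelial genes 5 lay at least 1 log2 unit above the depot in subcutaneous dog 4 (median 2.91) and 2 in gonadal dog 6 (0.40). In the other 16 arrays 0 to 4 did so, with medians from -0.77 to 1.10. WT1 was 7.54 in subcutaneous dog 4 against 2.88 to 3.10 in the other subcutaneous arrays. The subcutaneous marker PI3 stood at 13.78 there, within the 11.29 to 14.22 of its depot. PI3 is from a list of gonadal and subcutaneous depot genes that also holds WT1. Of its 12 genes 3 lay at least 1 log2 unit above the depot in subcutaneous dog 4 (median 0.34) and 2 in gonadal dog 6 (median -0.02). The medians in the other 16 arrays ran from -0.71 to 0.66, with 0 to 4 genes past 1 log2 unit. Skeletal muscle genes were high in subcutaneous dog 4 (10 of 11, median 6.68) and not in gonadal dog 6 (2 of 11, median -0.13), and subcutaneous dog 3 and gonadal dog 2, where the cilium genes were not raised, had muscle medians of 8.30 and 6.96. Over the 11 muscle genes the summed log2 was 112 in subcutaneous dog 4 and 53.5 to 129 in the other 3 subcutaneous control arrays. Adiponectin (ADIPOQ), a hormone of fat cells, stood at 14.33 in subcutaneous dog 4, within the 13.83 to 15.20 of its depot, and at 14.08 in gonadal dog 6, below the 14.38 to 15.56 of its own. The adipocyte list (14 genes) had medians of -1.10 and -1.39, inside the -1.48 to 0.88 of the others. By group, its summed log2 was 161.6 in subcutaneous dog 4, within the 152.7 to 170.8 of the other 3 subcutaneous control arrays. In gonadal dog 6 it was 161.7, below the 175.9 to 186.2 of the other 4 gonadal ad libitum arrays. The gonadal control arrays had 159.8 to 182.5. Of the ovarian list 11 genes, among them CYP19A1, FSHR, AMH and STAR, lay below the floor in every array. The 4 that could be read had medians of 0.36 and 1.27, against -0.37 to 0.61 in the other arrays. FST, which binds activin, stood at 9.45 in gonadal dog 6 with 6.43 to 7.96 in the rest of its depot, and SERPINE2, a protease inhibitor, at 9.21 with 5.36 to 7.36. In subcutaneous dog 4 both lay inside their depot's range. Of the airway list 6 genes, among them SCGB1A1 and BPIFA1, lay below the floor in every array, and of the 3 that could be read AGR2 stood at 4.29 and 6.20 with 2.78 to 2.91 elsewhere. The mammary and skin list also had 6 genes below the floor in every array. Of its 4 others 1 passed 1 log2 unit in each array of the pair (medians -0.01 and -0.12), against 0 to 2 elsewhere. The actin 3' minus 5' signal, a measure of RNA shortening, was 7.14 in subcutaneous dog 4 with 6.21 to 7.28 in the other subcutaneous arrays. In gonadal dog 6 it was 7.30 and so above the 5.43 to 6.88 of the others. The part of these in the result was not tested.

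**Figure D5:**
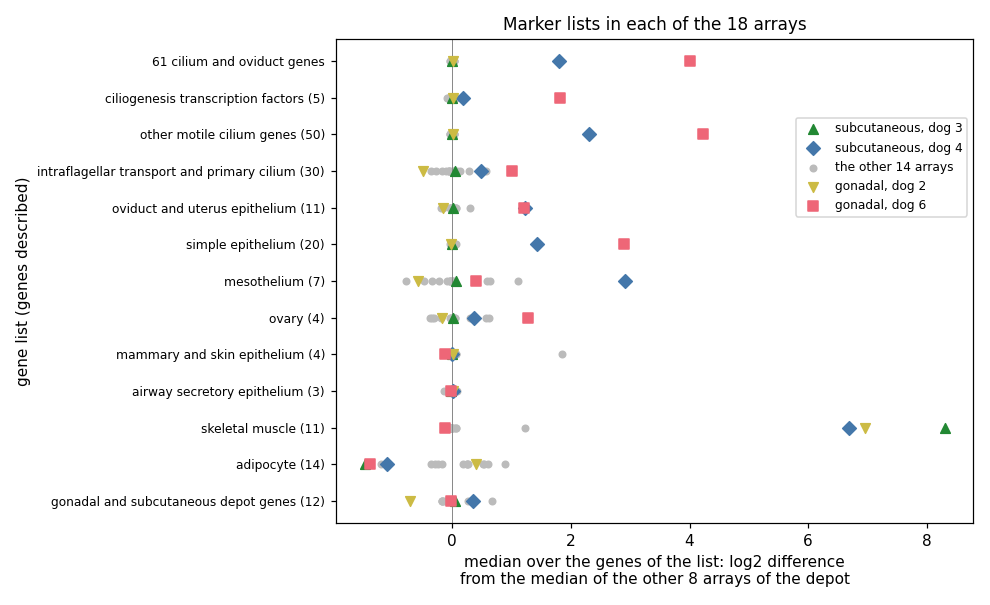
Median over the genes of each list (rows, with the number of genes) of the log2 difference from the other 8 arrays of the depot, with 1 marker per array. Gonadal dog 6 (red squares) and subcutaneous dog 4 (blue diamonds) stand to the right for the cilium and epithelial lists, and subcutaneous dogs 3 and 4 and gonadal dog 2 for skeletal muscle, at 8.30, 6.68 and 6.96.

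The genes outside the set most like it were ranked by the smaller of their differences in the 2 arrays, among 6002 genes with log2 of at least 6 in both. The 20 at the top ran from TSPAN1 (6.83) to WFDC5 (5.06). TSPAN1, a tetraspanin of secretory epithelia, stood at 10.43 and 12.01 with at most 3.96 elsewhere. C9H9orf116 (6.68), WFDC2 (6.46), MORN5, AK8, CLDN10, TEX26, IQCA1, ZMYND12 and SLC44A4 (5.69) followed. Further down came TNNI2, a muscle troponin that reached 14.31 in another array, then ENO4, C11H9orf24, SH3YL1, CAPS, PGR, TSPAN8, MUC1 and SLC15A2. Of 1276 genes outside the set that were at least 1 log2 unit above the depot in gonadal dog 6, 537 were so in subcutaneous dog 4 too, which is 42.1% of the former and 77.7% of the 691 in the latter.

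The design asks whether ad libitum feeding or depot changes expression. Of the 113 probe sets 30, for 20 genes, reached the floor in at least 4 arrays and were tested (limma, 4 group means over 18 arrays, Benjamini-Hochberg adjustment over 21484 probe sets, threshold 0.05). The 83 others could not be tested under that filter. For ad libitum minus control in subcutaneous fat limma called 0 of the 30 (2.36% of all probe sets tested were called), and 0 had an unadjusted p under 0.05 (23.7% of all). In gonadal fat it called 0 of 30 (0% of all), and 0 had an unadjusted p under 0.05 (2.47% of all). For gonadal minus subcutaneous fat 0 of 30 were called in control dogs (2.92% of all) and 0 of 30 in ad libitum dogs (7.19% of all), with 2 (20.4% of all) and 3 (23.5% of all) at an unadjusted p under 0.05. For the interaction of feeding and depot 0 of 30 were called (0% of all), with 1 at an unadjusted p under 0.05 (6.26% of all). Read against the shares called, 0% to 7.19%, a count of 0 among 30 carries little weight. With all 18 arrays the counts at an unadjusted p under 0.05 lay below the shares of all probe sets. For feeding in subcutaneous fat the count was 0 of 30, against 23.7% of all. These low counts depended on subcutaneous dog 4 and gonadal dog 6. In the limma fit without this pair, feeding gave 7 of 30 in subcutaneous and 1 in gonadal fat. Depot gave 8 of 30 (control) and 7 (ad libitum), and the interaction gave 3. Shares of all probe sets at that cutoff are not given here for the fit without the pair. The reason for the low counts with all arrays was not tested.

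The smallest p-values were those of TPPP3 between the depots of control dogs. The mean was 10.87 ± 0.27 (SD, n = 4) in subcutaneous and 8.54 ± 1.18 (SD, n = 4) in gonadal fat for one probe set, a difference of -2.33 ± 0.62 (standard error, 95% interval -3.63 to -1.03, limma adjusted p = 0.0512). For the other probe set it was -2.13 ± 0.58 (limma adjusted p = 0.0579). Both missed the threshold, and both passed it with the dog as a random block (limma adjusted p = 0.0245 and 0.0298) and in the fit without subcutaneous dog 4 and gonadal dog 6 (limma adjusted p = 0.0315 and 0.0266). Both missed it with the dog as a fixed block (limma adjusted p = 0.0506 and 0.0640). They also missed it without dog 1 (limma adjusted p = 0.124 and 0.192) and without dog 3 (0.195 and 0.227). Without subcutaneous dogs 3 and 4 and gonadal dog 6 both missed it too (limma adjusted p = 0.0952 and 0.0911). In ad libitum dogs the differences were -0.56 ± 0.55 and -0.69 ± 0.52 (limma adjusted p = 0.577 and 0.456). For feeding in subcutaneous fat they were -1.16 ± 0.58 and -1.11 ± 0.55 (limma adjusted p = 0.237 and 0.234), and for the interaction 1.77 ± 0.83 and 1.44 ± 0.78 (limma adjusted p = 0.748 for both).

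Among the rest, DNAAF5 differed between the depots of ad libitum dogs by 0.90 ± 0.35 (limma adjusted p = 0.124), DNAI4 by 0.84 ± 0.37 (0.173) and CFAP20DC by 0.54 ± 0.26 (0.211). The other CFAP20DC probe set, that with the highest mean, differed by 0.46 ± 0.25 (limma adjusted p = 0.281). With feeding in subcutaneous fat 1 tested CFAP221 probe set differed by 0.46 ± 0.22 (limma adjusted p = 0.221). The other, which has the higher mean, differed by 0.006 ± 0.10 (0.978). For CFAP20DC the feeding difference in subcutaneous fat was -0.55 ± 0.26 (limma adjusted p = 0.221) by the probe set with the highest mean and -0.25 ± 0.27 (0.589) by the other. In gonadal fat DNAAF5 differed by 0.66 ± 0.37 and CFAP298 by 0.67 ± 0.42. RSPH9, at 10.84 in gonadal dog 6 and 7.66, 7.59, 7.36 and 7.40 in the other gonadal ad libitum dogs (2, 5, 7 and 8), had an interaction of 2.07 ± 1.16 for 1 of its other probe sets (limma adjusted p = 0.748). OVGP1 differed with feeding by -1.75 ± 1.27 in subcutaneous and 1.10 ± 1.27 in gonadal fat, with 95% intervals of -4.45 to 0.94 and -1.59 to 3.79.

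The group means were compared with and without this pair of arrays. With all 18 arrays the median difference of the 61 genes was -0.55 for feeding in subcutaneous fat and 0.78 in gonadal fat, and -0.55 and 0.89 for gonadal minus subcutaneous fat in control and ad libitum dogs. Without subcutaneous dog 4 and gonadal dog 6 all 4 medians were -0.02. As the probe sets representing 41 genes lay below the floor in all arrays left, a median near 0 followed from the choice of genes. The genes with a mean difference of at least 1 log2 unit numbered 14 lower, 21 higher, 14 lower and 19 higher with all arrays, and 1 lower, 0, 3 (2 higher and 1 lower) and 1 lower without this pair. Of 9749 other genes, in the same order, 3.73% were lower, 1.47% higher, 5.23% lower and 4.64% higher with all arrays. Without this pair 3.14% were lower, 1.25% higher and 0.79% lower, 4.34% higher and 5.40% lower, and 3.68% lower. Leaving out both arrays also brought calls. Of all 21484 probe sets 325 were then called for feeding in subcutaneous fat. For depot 878 were called in control dogs and 1683 in ad libitum dogs. By 1 of its 2 probe sets CFAP300 rose with feeding in subcutaneous fat by 1.47 ± 0.33 (limma adjusted p = 0.0435, against 0.91 ± 0.54 and 0.310 with all arrays) and was higher in gonadal fat of control dogs by 1.46 ± 0.35 (limma adjusted p = 0.0326). Without subcutaneous dog 3 as well both calls were lost (limma adjusted p = 0.148 and 0.105). By 1 of its 2 probe sets CFAP36, named after its values were seen, differed between gonadal and subcutaneous fat of ad libitum dogs by -0.78 ± 0.19 (limma adjusted p = 0.0237, against -0.32 ± 0.38 and 0.655 with all arrays). Its other probe set, at -0.05 ± 0.32 with all arrays (limma adjusted p = 0.949), was called in this comparison under no alternative run.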

How the data were processed

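The deposited table holds 1 log2 expression value per probe set and array, a value that, per the submitters' processing notes, GCRMA computed. The base of the logarithm is read here as 2 from the range of the values, 0.68 to 16.51, and which version and options of GCRMA were used is not given in the sources used here. Array medians lay between 3.65 and 3.87 and 47.2% to 49.0% of probe sets reached the floor of log2 4. Gene symbols come from the platform annotation, which gave 1 symbol to 29254 of 42924 probe sets without array controls, several to 439 and none to 13231. Symbols can be old. The genes and lists were chosen with earlier results of these data known.

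A gene is represented by its kept probe set with the highest mean. Each array was read against the median of the other 8 arrays of its depot. R 4.3.3 with limma 3.58.1 fitted the 4 group means over all 18 arrays to 21484 probe sets at or above the floor in at least 4 arrays. Tests were two-sided with Benjamini-Hochberg adjustment and a threshold of 0.05, and errors after ± are limma's standard errors unless SD is given. The fit was tested on simulated data. This fit has no block for the dog. Both depots of a dog share its number, so the numbers pair the arrays (correlation of deviations from the group means -0.05 to 0.53 over the 9 dogs), and the dog as a block was an alternative (statmod 1.5.0). The genes named in full were FOXJ1, OVGP1, SPAG6, SPAG16, SPAG17, CCDC39, CCDC40 and TPPP3, the 3 of each family with the highest mean and the 3 with the highest value, and the 3 with the smallest p in each comparison. Up to 4 genes of each other list with the highest value were to be named, while DNAH5, DNAH11, CFAP299, CFAP36, PAX8 and the list genes below the floor were named after their values were seen. Promoter and protein sequences were not analysed here.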

Additional observations from a re-analysis of the deposited data

Results flagged for a closer look

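In 4 groups of 4 or 5 arrays the gap between the most extreme array and its nearest neighbour was divided by the whole range of the group, and the 62 ratios given here exceeded the 95% critical value (0.829 for 4 arrays, 0.710 for 5) out of 140 tests of 34 named genes and the median over all genes. Chance alone exceeds it in about 1 of 20 groups. The genes were named partly for their highest values, and many reached the floor only through the arrays tested here, so the count is a description and is not to be set against that rate. No explanation was weighed.

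The subcutaneous array of dog 4 accounts for 23 of them. For the median over the genes the ratio was 0.98. It was 1.00 for TEKT1, DNAAF6 and RSPH9, 0.99 for CFAP126, DNAH9, DNAI2, RSPH1, RSPH4A and TEKT2, and 0.98 for DNAAF1 and SPAG6. It was 0.97 for RSPH14, 0.96 for OVGP1 and SPAG17, 0.95 for DNAI1, 0.94 for DNAH12 and DNAI3, 0.92 for CCDC40, 0.91 for TEKT3, 0.89 for CFAP161, 0.86 for DNAH10 and 0.85 for CFAP298.

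The gonadal array of dog 6 accounts for 28, with 0.99 for the median over the genes. The ratio was 1.00 for TEKT1, DNAAF6 and CFAP126, 0.99 for DNAAF1, DNAH9, DNAI2, RSPH1, RSPH4A, SPAG6, SPAG17 and TEKT2, and 0.98 for DNAI1, DNAI3 and RSPH14. It was 0.95 for DNAH12, 0.94 for CCDC40 and TEKT3, 0.91 for DNAAF2 and RSPH9, 0.90 for DNAH10 and 0.89 for OVGP1. It was 0.88 for CFAP298, 0.87 for CFAP161, 0.78 for CFAP20 and RSPH3, 0.73 for TPPP3 and 0.71 for CFAP300.

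The other 11 lie in other arrays. OVGP1 in gonadal control dog 3 had a ratio of 0.94. In the remaining 10 the whole group spans under 1 log2 unit: DNAI1 in subcutaneous dog 6 (0.96), CFAP221 in gonadal dogs 4 (0.95) and 7 (0.86), DNAH14 in subcutaneous dog 9 (0.94), RSPH1 in gonadal dog 1 (0.91), RSPH3 in gonadal dog 3 (0.86), CFAP161 in subcutaneous dog 8 (0.76), and SPAG16 (0.89), DNAAF5 (0.77) and CFAP20 (0.76) in subcutaneous dog 5.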

How the results depend on the processing

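No called value reversed its direction under any alternative run. For gonadal minus subcutaneous fat in control dogs the number of probe sets called, 0, became 1 with a filter at log2 6, 2 with the dog as a random replicate block (TPPP3 both times) and 3 with array weights. Over all probe sets tested, the filter at log2 6 called 623 of 16450. The random block called 1346 of 21484 and array weights 3559 of 21484. With ad libitum dogs array weights gave 2 of 30, and 5274 of all 21484. The pairing by dog changed no other call, and the fixed block called 0. Leaving out dogs or arrays gave 0 to 1 for feeding in subcutaneous fat, 0 to 3 for depot in control dogs and 0 to 1 for depot in ad libitum dogs, and 0 throughout for feeding in gonadal fat and the interaction. The highest counts came without gonadal dog 6, where CFAP20 (adjusted p = 0.0371, limma) joined TPPP3 in control dogs and CFAP36 was called in ad libitum dogs (adjusted p = 0.0469, limma), also without the subcutaneous arrays of dogs 3 and 4. With the filter at log2 4 in 1 array all 113 probe sets were tested and 0 were called in each comparison.

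The median difference of the genes in subcutaneous dog 4 was 1.80 with any other dog left out, and in gonadal dog 6 it ran from 3.94 to 4.08. Over genes that reach log2 6 they were 2.77 and 4.89, and with values below the floor set to it 1.09 and 2.92. Over the 20 genes that reach the floor elsewhere, a choice made after seeing the data, they were 0.88 and 2.28, with -0.084 to 0.17 in the other 16 arrays. With a dog left out the highest of the other 16 lay between 0.03 and 0.04 and the lowest between -0.06 and -0.04. The lowest was -0.017 after quantile normalization, and with values below the floor set to it both became 0. Causes were not tested. Low signal limits the set. By the probe sets that represent them 41 genes lie below the floor in the other 16 arrays, where a difference could not be read.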
